A study of Bos taurus with 60 samples.

Results

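The large intestine was compared with the small intestine within 5 super-shedders, cattle (Bos taurus) whose feces carried large numbers of Escherichia coli O157, a bacterium of the bovine gut that can cause disease in people. Small RNA was sequenced from 6 gut regions of each animal, and the reads were counted per mature microRNA (miRNA). The large intestine was represented by the cecum, spiral colon and descending colon and the small intestine by the duodenum, proximal jejunum and distal jejunum, which gave 15 libraries a side and 3 per animal and side. Libraries were chosen from the shedding and tissue labels, and they are 30 of the 60 libraries and 5 of the 10 animals of the study. The other 30 libraries came from non-shedders, in which no E. coli O157 was found, and they serve only for a comparison of the regional difference. Super-shedders carry the letters F to J and non-shedders A to E in the sample titles. Each letter was taken as 1 animal, which is an inference: a letter has the same shedding status in each region, and per the labels several tissues came from each animal. The labels name no strain, age or agent for either group. Biopsies of intestinal tissue were used, and the labels describe no separation of mucosa from muscle. The extraction protocol speaks of rectal tissue, while the tissue labels name the 6 regions, and the tissue labels were used.

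miRNAs are short RNAs that guide Argonaute proteins to messenger RNAs with matching sites, which lowers the translation and stability of those messages. Many are made by 1 kind of tissue and so tell what a biopsy held. miR-192, miR-194 and miR-215 are abundant in the absorptive epithelium of the gut, the miR-200 family marks epithelium at large, miR-143 and miR-145 mark smooth muscle, miR-142 and miR-223 mark leukocytes, and miR-451 and miR-486 mark red blood cells. The miR-10 and miR-196 genes lie within the HOX clusters, whose genes set position along the body axis, and miR-196 is made in the hindgut and its derivatives. In the intestine the ordered use of HOX genes makes these miRNAs markers of position, with miR-196b expected in the large rather than the small intestine. Levels below are read counts per library as CPM after TMM, a scaling by 1 factor per library that offsets the effect of a few dominant miRNAs. It does not make the libraries alike in composition. Where miR-143 takes most of the reads, this scaling can lift the values of a library beyond the sum that unscaled CPM would allow. Because these are bulk samples, fewer cells of a type and less RNA per cell cannot be told apart in any level given here.

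Total counts ran from 659627 in the proximal jejunum library of letter G to 13942283 in the descending colon library of letter J. They averaged 3243650 ± 2470690 per library in the large intestine and 2172060 ± 1377240 in the small intestine (SD over 5 animal means), and were higher in the large intestine in 3 of 5 animals (exact paired permutation test, two-sided, p = 0.625, where 0.0625 is the smallest p that 5 pairs allow). Between 350 and 495 miRNAs were detected per library. miR-143 alone took 8.38 to 69.2% of the counts of a library and miR-192 took 0.134 to 25.8%. Of 608 miRNA names, 271 passed the filter on low counts and were tested. They held 99.965% of the super-shedder counts.

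miR-196b, the marker of position, went against the tissue label in 8 of the 30 libraries, and this bears on every result below. The libraries of letter F held 1119, 555 and 841 CPM in cecum, spiral colon and descending colon, and 1.41, 7.01 and 0 CPM in duodenum, proximal jejunum and distal jejunum. Letter J had 732, 854 and 458 CPM in the same large-intestine regions and 0, 0.710 and 1.30 CPM in the small-intestine regions. In both animals every large-intestine library lay far above every small-intestine library. Letter G held 707 and 722 CPM in cecum and spiral colon but 1.17 CPM in the descending colon, with 0.495, 6.32 and 0.787 CPM in its small intestine. Letter H held 903 CPM in the cecum, 0.523 CPM in the spiral colon and 0 CPM in the descending colon, against 4.23, 0.873 and 822 CPM in duodenum, proximal jejunum and distal jejunum. In H the distal jejunum library therefore stood as high as its cecum library, and the other large-intestine libraries stood as low as its duodenum. Letter I was turned round in most regions, with 0.781, 0.580 and 277 CPM in cecum, spiral colon and descending colon and 0.694, 348 and 1054 CPM in duodenum, proximal jejunum and distal jejunum. With 50 CPM as the line, 5 large-intestine libraries lay below it and 3 small-intestine libraries lay above it, 4 of them from letter I, 3 from H and 1 from G. Among the 30 non-shedder libraries 3 went against their label in this way. A count of 0 allows up to 1.63 CPM in the descending colon of H, 1.37 CPM in the distal jejunum of F and 1.28 CPM in the duodenum of J (3 counts, counting error only). Why these libraries differ from their labels was not tested. They are called by their labels throughout, and the comparison is given with and without them.

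**Figure D1:**
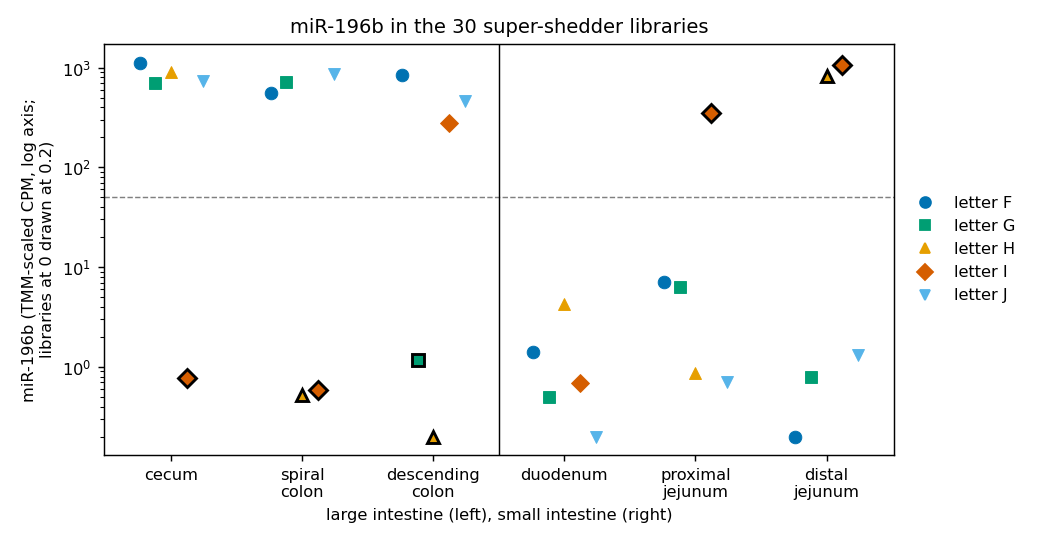
miR-196b level (TMM-scaled CPM, log axis) in each of the 30 super-shedder libraries by region, large intestine left of the line and small intestine right of it, with 1 symbol per animal. Symbols with a black outline mark the 8 libraries on the other side of the dashed line at 50 CPM from their label, and libraries with 0 counts are drawn at 0.2.

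Another regional miRNA moved with miR-196b in most of these libraries. miR-215, made in absorptive epithelium, stood at 43758 CPM in the descending colon of G, at 17848 and 16859 CPM in the spiral and descending colon of H and at 12037 CPM in the spiral colon of I, while the cecum of I held 348 CPM. The distal jejunum of H held 1525 CPM, and the proximal and distal jejunum of I held 167 and 189.9 CPM. The 10 other large-intestine libraries ran from 291 CPM (descending colon of I) to 13690.1 CPM (descending colon of J), and the 12 other small-intestine libraries from 974 CPM (duodenum of I) to 45555 CPM (duodenum of F). Large-intestine libraries low in miR-196b were thus high in miR-215 in 4 of 5 cases, and the 3 small-intestine libraries high in miR-196b were all low in it, although the 2 sides overlap also among the other libraries. In the proximal and distal jejunum of I the low level was not particular to miR-215. miR-192 stood there at 2946 and 6846 CPM and miR-194 at 122 and 240 CPM. The distal jejunum of H held 62800 CPM of miR-192 and 1868 CPM of miR-194.

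Letter I stood apart in tissue content as well. The summed level of the enterocyte list (miR-192, miR-194 and miR-215) was 4326 CPM in its descending colon, 3234 CPM in its proximal jejunum and 7276 CPM in its distal jejunum. In the 12 libraries a side of the 4 other animals this sum ran from 34219.6 to 230568 CPM in the large intestine and from 43554 to 278770 CPM in the small intestine. The miR-200 family summed to 90.8, 89.2 and 567 CPM in the same 3 libraries of I, against at least 3132 CPM in large-intestine and 1346 CPM in small-intestine libraries of the others. The muscle list was highest in the small intestine in those jejunum libraries, at 1309020 and 1781460 CPM, and lowest in the duodenum of I, at 64659 CPM. The duodenum of I also held 13102 counts of miR-122, the main miRNA of liver, or 9088 CPM, where the next library had 11.3 CPM and 11 libraries had none. Its descending colon held 21980 CPM of miR-486 and 1514 CPM of miR-451, against at most 1095 CPM of miR-486 and 302 CPM of miR-451 in any other library, both in the duodenum of I. Values without letter I are given beside the named miRNAs whose call or size it changes.

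**Figure D2:**
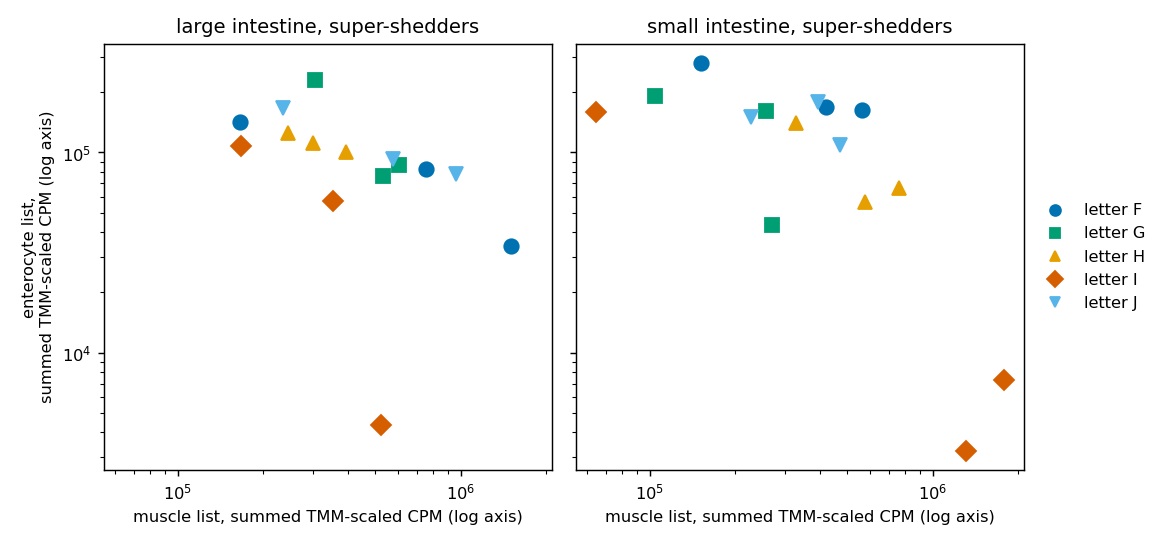
Summed level of the enterocyte list (vertical, TMM-scaled CPM, log axis) against that of the muscle list (horizontal, log axis) in each super-shedder library, large intestine left and small intestine right, with 1 symbol per animal. Only letter I has libraries near the bottom of the enterocyte axis, 1 in the large and 2 in the small intestine.

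No miRNA differed between large and small intestine at an adjusted p under 0.05 in the 30 libraries. edgeR's quasi-likelihood test with the animal as a block called 0 of 271 miRNAs (0%), and 42 (15.5%) had an unadjusted p under 0.05, 24 higher (8.86%) and 18 lower (6.64%) in the large intestine. DESeq2 called 9 miRNAs in the same libraries, 7 higher (miR-10a, miR-130a, miR-196a, miR-196b, miR-199c, miR-205 and miR-211) and 2 lower (miR-98 and miR-677). The test takes the 3 libraries of an animal and side as separate, and with 1 value per animal and side edgeR on summed counts and limma on mean log2 levels called 0 too, and their unadjusted p was under 0.05 for 19 and 13 miRNAs. For no miRNA did all 15 large-intestine libraries lie apart from all 15 small-intestine libraries (0%). In 15 miRNAs (5.54%) the mean of the large intestine was the higher one in all 5 animals, among them miR-199c, miR-130a, miR-10b, miR-375 and miR-200b, and in another 15 (5.54%) it was the lower one in all 5, among them miR-98, miR-146a, miR-191 and miR-20a.

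The 6 abundant miRNAs (mean of at least 100 CPM) with the smallest p among those higher in the large intestine were miR-199c, miR-92b, miR-130a, miR-497, miR-196b and miR-10a, and none of them passed the test in all 30 libraries. miR-199c, of the miR-199 family of connective tissue, averaged 2282 ± 337 CPM in the large intestine and 1577 ± 163 CPM in the small intestine (SD, n = 5 animals). Its libraries ran from 1732 to 3378 CPM in the large intestine, with a median of 2062, and from 1093 to 2397 CPM in the small intestine, with a median of 1534. The libraries of the sides overlapped, yet the large intestine was higher in all 5 animals, by 0.73 in F, 0.06 in G, 0.64 in H, 0.49 in I and 0.71 in J on the log2 scale, and the fitted difference was 0.53 ± 0.13 (SE; adjusted p = 0.102, edgeR). miR-130a, a vascular miRNA, ran from 203 to 444 CPM in the large intestine, with a median of 259, and from 165 to 335 CPM in the small intestine, with a median of 212. It too was the higher one in all 5 animals, with differences of 0.21 in F, 0.55 in G, 0.18 in H, 0.04 in I and 0.58 in J and a fitted log2 difference of 0.32 ± 0.10 (adjusted p = 0.166, edgeR). Without letter I both passed, miR-199c at 0.52 ± 0.12 and miR-130a at 0.35 ± 0.09 (adjusted p = 0.0214 and 0.0225, edgeR).

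miR-497, of the miR-15/16 family, ran from 96.1 to 439 CPM in the large intestine, with a median of 232, and from 117 to 238 CPM in the small intestine, with a median of 146. Its difference was positive in F, G, H and J and -0.34 in I, with a fitted log2 difference of 0.48 ± 0.16 (adjusted p = 0.166, edgeR). Without letter I it passed at 0.67 ± 0.13 (adjusted p = 0.00687, edgeR). miR-92b, a relative of the miR-17-92 family, had its range of 128 to 499 CPM (median 241) in the large intestine and 54.0 to 303 CPM (median 181) in the small intestine. The difference was widest in I and H, with 0.72 in F, -0.35 in G, 1.12 in H, 2.04 in I and 0.16 in J, and the fitted value was 0.76 ± 0.23 (adjusted p = 0.166, edgeR). Without letter I it was 0.42 ± 0.21, and without H and I it was 0.11 ± 0.18.

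Of the HOX-cluster miRNAs, miR-196b and miR-196a had the largest fitted differences of the 271 and the largest spread between animals. miR-196b differed by 8.37 in F, 5.34 in G, -0.93 in H, -3.26 in I and 8.88 in J on the log2 scale, with a fitted difference of 5.04 ± 1.74 (adjusted p = 0.166, edgeR). It was positive in 3 animals and negative in H and I, the animals with the most libraries against their label. Its close relative miR-196a, below the abundance line at a mean of 89.2 CPM, had a fitted difference of 3.53 ± 0.94 (adjusted p = 0.102, edgeR) and single differences of 4.94 in F, 1.59 in G, 1.27 in H, -0.42 in I and 6.17 in J. miR-10a averaged 47976 ± 19376 CPM in the large intestine and 45771 ± 55758 CPM in the small intestine (SD, n = 5 animals), so that its means were close while its fitted log2 difference was 1.35 ± 0.47 (adjusted p = 0.166, edgeR). The small-intestine mean was raised by the proximal and distal jejunum of I, at 190313 and 242663 CPM, where no other small-intestine library exceeded 61132 CPM. In F, G and J the large intestine was higher by 2.14, 2.35 and 2.20, in H by 0.63, and I stood at -1.64. miR-10b, whose mature form is nearly that of miR-10a, was higher in all 5 animals, by 2.39 in F, 1.87 in G, 0.20 in H, 0.77 in I and 2.35 in J, with a fitted value of 1.39 ± 0.56 (adjusted p = 0.229, edgeR). Letter I is among the animals with the most libraries against their label by miR-196b, so leaving it out partly builds in a rise here. Without letter I, and as a description only, all 4 passed, miR-196b at 6.25 ± 1.56, miR-196a at 4.07 ± 0.99, miR-10a at 1.82 ± 0.30 and miR-10b at 1.72 ± 0.45 (adjusted p = 0.0225, 0.0225, 0.00246 and 0.0239, edgeR). How reads were divided between such near-identical miRNAs is not given in the sources used here.

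Among the abundant miRNAs lower in the large intestine, the 6 with the smallest p were miR-98, miR-146a, miR-2285k, miR-191, miR-19b and miR-20a, and none of these passed either. miR-98, a let-7 relative, averaged 556 ± 47.0 CPM in the large intestine and 715 ± 89.1 CPM in the small intestine (SD, n = 5 animals). Its libraries ran from 456 to 788 CPM in the large intestine, with a median of 509.5, and from 505 to 1012 CPM in the small intestine, with a median of 743. It was the lower one in all 5 animals, with differences of -0.58 in F, -0.40 in G, -0.52 in H, -0.09 in I and -0.19 in J. The fitted value was -0.35 ± 0.10 (adjusted p = 0.128, edgeR). miR-146a, which damps innate immune signalling and is induced by NF-kappa-B, averaged 984 ± 359 CPM in the large intestine and 1893 ± 670.5 CPM in the small intestine (SD, n = 5 animals). Its libraries ran from 249 to 2578 CPM in the large intestine, with a median of 734, and from 551 to 3242 CPM in the small intestine, with a median of 2183. It was lower in all 5 animals, with -2.03 in F, -0.80 in G, -0.35 in H, -0.28 in I and -1.19 in J, so F and J stood well below H and I, and the fitted value was -0.94 ± 0.32 (adjusted p = 0.166, edgeR). miR-191 and miR-20a, a member of the miR-17-92 cluster that drives proliferation, were also lower in all 5 animals, with fitted values of -0.28 ± 0.13 and -0.27 ± 0.14 (adjusted p = 0.273 and 0.354, edgeR). miR-19b, of the same cluster, and the ruminant miR-2285k were lower in 4 of 5, with -0.34 ± 0.15 and -0.67 ± 0.28 (adjusted p = 0.273 and 0.247, edgeR). The libraries of the sides overlapped in each of these 6. Without letter I miR-98 passed at -0.45 ± 0.10 and miR-146a at -1.16 ± 0.30 (adjusted p = 0.0202 and 0.0225, edgeR), and the other 4 did not.

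**Figure D3:**
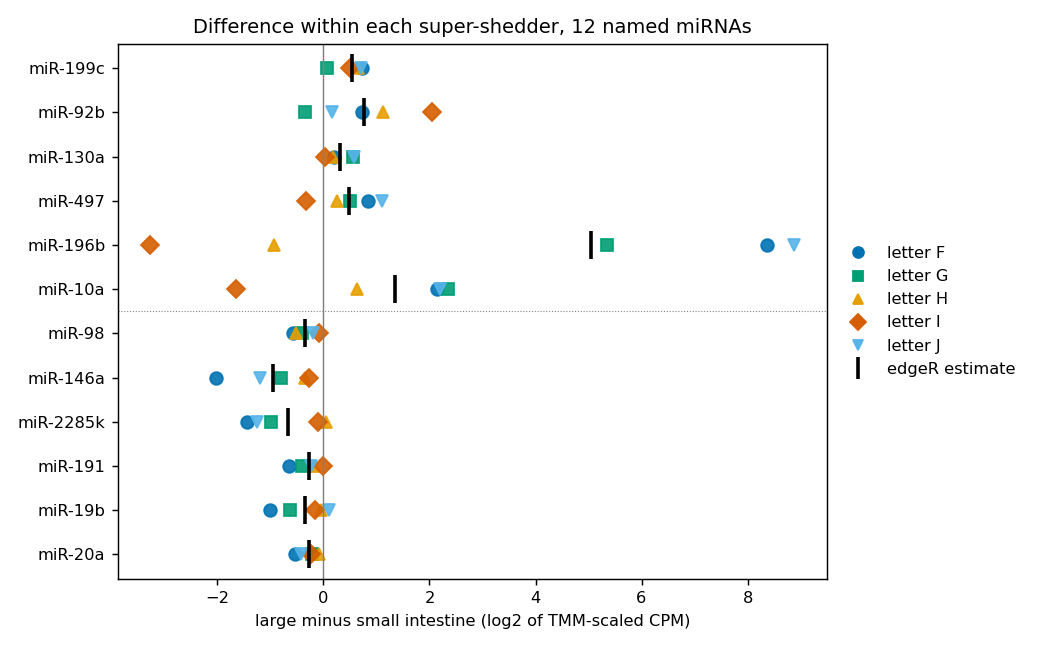
Large minus small intestine (log2 of TMM-scaled CPM, mean of 3 libraries minus mean of 3 libraries) in each super-shedder for the 12 named miRNAs, 6 higher above the dotted line and 6 lower below it. Black bars are the fitted differences of edgeR. Letter I (diamonds) and letter H (upward triangles) lie left of F, G and J for miR-196b and miR-10a.

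Grouped by tissue, the miRNA lists split the animals. HOX-cluster miRNAs were positive in 4 of 4 tested members with a median log2 difference of 2.46, against -0.01 over all 271, of which 134 were positive and 137 negative. Within animals that median was 3.66 in F, 2.11 in G, 0.42 in H, -1.03 in I and 4.26 in J. The muscle list, led by miR-143, had a median of 0.14 with 5 of 6 positive, but its median by animal was 0.997 in F, 1.39 in G, -0.96 in H, -1.54 in I and 0.82 in J. F, G and J were thus positive and H and I negative, and miR-143 itself had a fitted difference of 0.12 ± 0.44, and 0.47 ± 0.38 without letter I (adjusted p = 0.943 and 0.419, edgeR). Leukocyte miRNAs ran the other way, with medians of -0.72 in F, -0.63 in G, 0.29 in H, 0.91 in I and -0.28 in J and a median of the fitted values of 0.03, 5 of 10 being positive. No member of any list passed the test in all 30 libraries.

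The miR-200 family and the other epithelial list differed most in letter I. All 5 members of the miR-200 family, which keeps epithelial cells epithelial by repressing ZEB1 and ZEB2, were positive with a median log2 difference of 1.02. Its most abundant members were miR-200b at 1.08 ± 0.50, miR-141 at 0.52 ± 0.57 and miR-200a at 1.02 ± 0.52 (adjusted p = 0.286, 0.756 and 0.34, edgeR). The list's median was 0.03 in F, 0.68 in G, -0.04 in H, 2.76 in I and 0.60 in J. Without letter I, miR-200b stood at 0.47 ± 0.36, miR-141 at -0.25 ± 0.24 and miR-200a at 0.31 ± 0.23. Other epithelial miRNAs were positive in 6 of 6 with a median of 0.82, and letter I again stood at 2.69 against 0.09 to 0.44 in the other animals. miR-375, made by enteroendocrine cells, led them with 1.28 ± 0.54 (adjusted p = 0.244, edgeR), and 0.47 ± 0.26 without letter I. All 3 small-intestine libraries of I were low in these lists. The duodenum of I held 747 CPM of the miR-200 family and 422 CPM of the other epithelial list, also below every small-intestine library of the 4 other animals. The descending colon of I was low as well, at 90.8 and 93.1 CPM. The cecum of I held 20332 CPM of the miR-200 family, the highest sum of the large intestine, and 13728 CPM of the other epithelial list. The enterocyte list had a median of -0.16, with -1.30 in F, 0.05 in G, 0.46 in H, 0.90 in I and -0.24 in J. miR-192 stood at -0.16 ± 0.44, miR-194 at 0.04 ± 0.43 and miR-215 at -0.98 ± 0.74 (adjusted p = 0.94, 0.981 and 0.532, edgeR). Without letter I miR-215 stood at -1.86 ± 0.60 (adjusted p = 0.0612, edgeR).

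Some lists of miRNA clusters and families leaned to 1 side by their fitted values, not all of them in every animal. Of 16 tested miRNAs of the imprinted DLK1-DIO3 region, which is active in muscle and connective tissue, 14 were positive with a median of 0.48, and the medians by animal were 1.01 in F, 0.43 in G, 0.10 in H, -0.49 in I and 0.82 in J. Its most abundant members were miR-127 at 0.10 ± 0.24, miR-411a at 0.61 ± 0.27 and miR-379 at -0.02 ± 0.27 (adjusted p = 0.925, 0.273 and 0.981, edgeR). Without letter I miR-411a passed at 0.86 ± 0.22 (adjusted p = 0.0225, edgeR). Of 14 tested miRNAs of miR-17-92 and its paralogs, which are high in dividing cells, 11 were negative with a median of -0.27, and the animals stood at -0.70 in F, -0.58 in G, -0.02 in H, 0.39 in I and -0.09 in J. miR-92a, miR-25 and miR-93, the most abundant, differed little, at 0.11 ± 0.25, -0.03 ± 0.11 and -0.11 ± 0.11. Ruminant miRNAs of the miR-2284 and miR-2285 families were negative in 10 of 12 with a median of -0.44. Medians of the let-7, miR-30, miR-148 with miR-152, miR-23/27/24, stroma, neural and erythroid lists lay between -0.27 and 0.24, and no member of the liver and pancreas list passed the count filter.

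**Figure D4:**
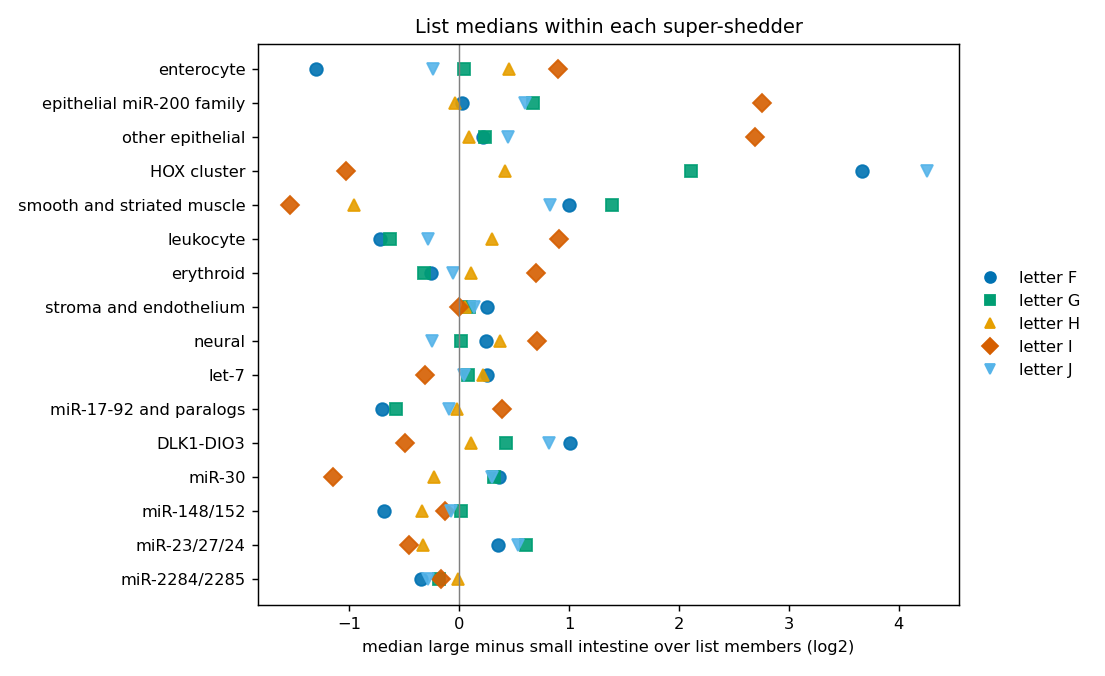
Median large minus small difference (log2) over the tested members of each miRNA list within each super-shedder. Letter I (diamonds) lies to the right for the epithelial lists and to the left for the muscle and HOX lists, where F, G and J lie together on the right.

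Across miRNAs the animals fell into unlike patterns. Over the 288 miRNAs tested in the model of all 60 libraries, the large minus small difference of an animal was correlated with the mean difference of the 5 non-shedders at r = 0.849 in F, 0.811 in J and 0.782 in G, but at -0.0610 in H and -0.357 in I. Each non-shedder's own correlation with the mean of the other 4 non-shedders lay between 0.713 and 0.849. Between super-shedders, r was 0.777 for F and J, 0.663 for G and J and 0.621 for F and G. For H and I it was 0.425, and the 6 pairs that join H or I to F, G or J ran from -0.371 to 0.0744. These correlations are over miRNAs, which are not independent, and the points of an animal share its 6 libraries.

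Leaving out the libraries that went against their label changed the result for the whole table. In the 22 other libraries edgeR's quasi-likelihood test with the animal as a block called 92 of 277 miRNAs (33.2%), 54 higher (19.5%) and 38 lower (13.7%) in the large intestine. The choice of these libraries rests on miR-196b, which itself differs between the sides, so part of this count is built in, and the values of miR-196b and its neighbours in it are a description only. Leaving out whole animals gave 20 of 272 called (7.35%) without letter I, 14 higher (5.15%) and 6 lower (2.21%). Without H and I it gave 43 of 283 (15.2%), 22 higher (7.77%) and 21 lower (7.42%). Letters H and I have the most libraries against their label, so these counts are partly built in as well. With 1 mean per animal and side over the 22 libraries limma called 7 of 277 (2.53%), with miR-196b, miR-196a, miR-10a, miR-205 and miR-133a as the 5 higher (1.81%) and miR-146a and miR-2285k as the 2 lower (0.722%). Here letter I keeps only its descending colon and duodenum, and the large intestine of H only its cecum. The values of these animals thus also hold differences between regions of a side. The descending colon of I was low in epithelial miRNAs and its duodenum held the liver miRNA miR-122, as given above. Libraries of the sides no longer overlapped for 2 of 277 miRNAs (0.722%), miR-196b and miR-10b. For miR-196b this was fixed in advance by the line at 50 CPM, so neither it nor its limma call is a result. The values of miR-10b and the limma calls of miR-196a and miR-10a, also of the HOX clusters, depend on the same choice.

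In these 22 libraries 4 of 6 muscle miRNAs rose in the large intestine, while the enterocyte miR-215 and 6 of 10 leukocyte miRNAs fell. Over all 277 tested, 19.5% rose and 13.7% fell. Epithelial miRNAs did not move as a group: none of 5 miR-200 family members was called, and 4 were positive. Of the other epithelial list 3 of 6 rose, namely miR-375, miR-205 and miR-147. miR-96 of that list fell, at -1.27 ± 0.29 (adjusted p = 0.00405, edgeR). All p-values from these 22 libraries are shaped by how the libraries were chosen, so they are descriptive. In all 30 libraries miR-215 stood at -0.98 and miR-143 at 0.12, and neither passed. The HOX-cluster values follow most directly from the choice of libraries and are given with no test. They were 2.90 ± 0.48 for miR-10b and 2.40 ± 0.23 for miR-10a on the log2 scale, and miR-10a libraries ran from 32393 to 121067 CPM in the large intestine, with a median of 62101, and from 1333 to 33516 CPM in the small intestine, with a median of 18795. miR-143, the dominant miRNA of smooth muscle, rose by 1.13 ± 0.35 (adjusted p = 0.0241, edgeR), with 170052 to 1603560 CPM (median 574123) in the large intestine and 66093 to 589342 CPM (median 305324) in the small intestine. miR-133a, of striated and smooth muscle, rose by 1.94 ± 0.35 and miR-497 by 0.82 ± 0.14 (adjusted p = 0.000853 and 0.000633, edgeR). No miRNA of the muscle list fell. Of the let-7 list 3 of 10 rose and 1 fell, and of the miR-30 list 2 of 6 rose. Of 17 tested miRNAs of stroma and endothelium 6 rose and 2 fell, beside 19.5% and 13.7% over all 277. miR-125a and miR-125b rose by 0.81 ± 0.29 and 0.76 ± 0.25, and miR-21-3p and miR-21-5p fell, at -0.78 ± 0.18 and -0.37 ± 0.12 (adjusted p = 0.0418, 0.0349, 0.00452 and 0.0267, edgeR). Of the miR-23/27/24 miRNAs 3 of 5 rose, among them miR-27b by 0.84 ± 0.14, and the enteroendocrine miR-375 rose by 0.83 ± 0.21 (adjusted p = 0.000521 and 0.00931, edgeR). Of 16 miRNAs of the DLK1-DIO3 region 14 rose, with a list median of 0.92 against 0.06 over all 277, and miR-411a among them rose by 1.14 ± 0.22 (adjusted p = 0.0013, edgeR). miR-143, miR-27b, miR-375, miR-497, miR-125a, miR-125b and miR-411a did not pass with 1 mean per animal, where their adjusted p ran from 0.0821 to 0.254 (limma).

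Among those that fell, miR-215 stood at -2.86 ± 0.46 (adjusted p = 0.000521, edgeR), with 272 to 13536 CPM (median 1459) in the large intestine and 999.7 to 47147 CPM (median 21975) in the small intestine. Its partners in enterocytes had negative values that did not pass, -1.02 ± 0.38 for miR-192 and -0.77 ± 0.44 for miR-194 (adjusted p = 0.0504 and 0.199, edgeR). Of the 10 tested leukocyte miRNAs 1 rose, miR-147 at 1.18 ± 0.42 (adjusted p = 0.0412, edgeR), which is counted in the other epithelial list too. The immune regulator miR-146a fell by 1.57 ± 0.19 (adjusted p = 2.63e-05, edgeR) and ran from 448 to 1254 CPM in the large intestine, with a median of 705, and from 586 to 3328 CPM in the small intestine, with a median of 2350.4. The blood-cell miRNAs miR-142-3p, miR-142-5p, miR-223, miR-150 and miR-146b stood at -1.11 ± 0.27, -0.71 ± 0.25, -0.97 ± 0.31, -0.68 ± 0.21 and -0.85 ± 0.30 (adjusted p from 0.00616 to 0.0412, edgeR). Of 14 miRNAs of miR-17-92 and its paralogs 8 fell and none rose, with a list median of -0.54, where 13.7% of all 277 fell. Among these 14, miR-17-5p, miR-20a and miR-19b stood at -0.72 ± 0.15, -0.55 ± 0.11 and -0.54 ± 0.17. miR-425-5p fell as well, at -0.50 ± 0.18 (adjusted p = 0.0443, edgeR). Of the 12 abundant miRNAs with the largest falls, miR-21-3p included, only miR-146a passed with 1 mean per animal (adjusted p = 0.0332, limma), and the other 11 had adjusted p of at least 0.0821 there. miR-2285k, not among these 12, stood at -1.33 ± 0.23 (adjusted p = 0.000633, edgeR) and passed with 1 mean per animal too (adjusted p = 0.0332, limma).

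Within the small intestine the duodenum stood apart from the jejunum. A difference among its 3 regions was called for 3 of 271 miRNAs (1.11%) in all 30 libraries, and 27 (9.96%) had an unadjusted p under 0.05. miR-148a, high in glandular and secretory tissue, averaged 52431 ± 27871 CPM in the duodenum, 15073 ± 5549 CPM in the proximal jejunum and 14026 ± 5030.1 CPM in the distal jejunum (SD, n = 5). The duodenum held 48853, 31737, 23545, 93482 and 64538 CPM in F, G, H, I and J, above every jejunum library of all 5 animals, since the highest of those was 21704 CPM (adjusted p = 0.0028, edgeR). miR-10a averaged 2454 ± 998 CPM in the duodenum, 61195 ± 72245 CPM in the proximal jejunum and 73666 ± 96189.6 CPM in the distal jejunum (SD, n = 5), and every duodenum library, at most 4045 CPM, lay below every jejunum library, at least 12370.1 CPM (adjusted p = 0.0161, edgeR). miR-181a, a regulator of lymphocyte signalling, averaged 4606 ± 784 CPM in the duodenum, 8619.7 ± 4297 CPM in the proximal jejunum and 10385 ± 1135 CPM in the distal jejunum (SD, n = 5) with overlapping regions (adjusted p = 0.0329, edgeR). The next by p were miR-181b and miR-196a, which did not pass (adjusted p = 0.0604 and 0.0919, edgeR). Without letter G or without letter J none of the 271 was called, and without F or without H only miR-148a was. Scaling to total counts ended the call of miR-148a (adjusted p = 0.0851) and of miR-181a (0.827), and RLE scaling and no count filter ended that of miR-181a (0.0613 and 0.101). Without the 8 libraries against their label edgeR called 16 miRNAs, these 3 among them. Within the large intestine 0 of 271 were called (0%), with 14 (5.17%) at an unadjusted p under 0.05, and DESeq2 called 0 as well. The smallest p there belonged to miR-451, miR-215, miR-486, miR-210 and miR-2285p, all with an adjusted p of 0.751 (edgeR).

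Set beside non-shedders, super-shedders had smaller regional differences by their median size in the same model of 60 libraries, without a miRNA for which the difference between the groups passed the test. In super-shedders 3 of 288 miRNAs were called higher (1.04%) in the large intestine, namely miR-196a, miR-199c and miR-205, and 0 lower (0%). In non-shedders 91 of 288 (31.6%) were called, 50 higher (17.4%) and 41 lower (14.2%). The median size of the log2 difference was 0.204 in super-shedders and 0.378 in non-shedders. Signs were the same for 198 of 288 miRNAs, and for 81 of the 91 called in non-shedders. The size of the differences as a whole was not tested. The test of the difference itself (super-shedder minus non-shedder difference) called 0 of 288 (0%), with 33 (11.5%) at an unadjusted p under 0.05, and DESeq2 and limma on animal means called 0 too. By p, the first were miR-15b, of the miR-15/16 family, with 0.00 ± 0.18 in super-shedders and -0.74 ± 0.18 in non-shedders, miR-92b with 0.75 ± 0.27 and -0.32 ± 0.26, and miR-655 with -0.18 ± 0.36 and 1.24 ± 0.35. miR-26a and miR-26c, near-identical in sequence, stood at -0.10 and -0.10 in super-shedders and at 0.38 and 0.39 in non-shedders. All 5 had an adjusted p of 0.372 for the difference (edgeR).

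Values of super-shedders without the libraries against their label were set beside those of non-shedders. The libraries left out were chosen because they broke the regional pattern of miR-196b, so a likeness to the non-shedder pattern is partly built in. Of the 92 miRNAs called in the 22 super-shedder libraries 56 (60.9%) were among the 91 called in non-shedders (61.5% of those), all 56 in the same direction. miR-215 stood at -2.86 ± 0.46 in super-shedders and -2.42 ± 0.55 in non-shedders, miR-146a at -1.57 ± 0.19 and -1.16 ± 0.31, miR-10a at 2.40 ± 0.23 and 1.87 ± 0.38, and miR-143 at 1.13 ± 0.35 and 0.85 ± 0.35. In the fit without the 11 such libraries of both groups, 0 of 296 miRNAs differed between super-shedders and non-shedders (0%), and 4 had an unadjusted p under 0.05. That fit holds 49 libraries and the other holds 60, so the counts of the fits are not compared.

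**Figure D5:**
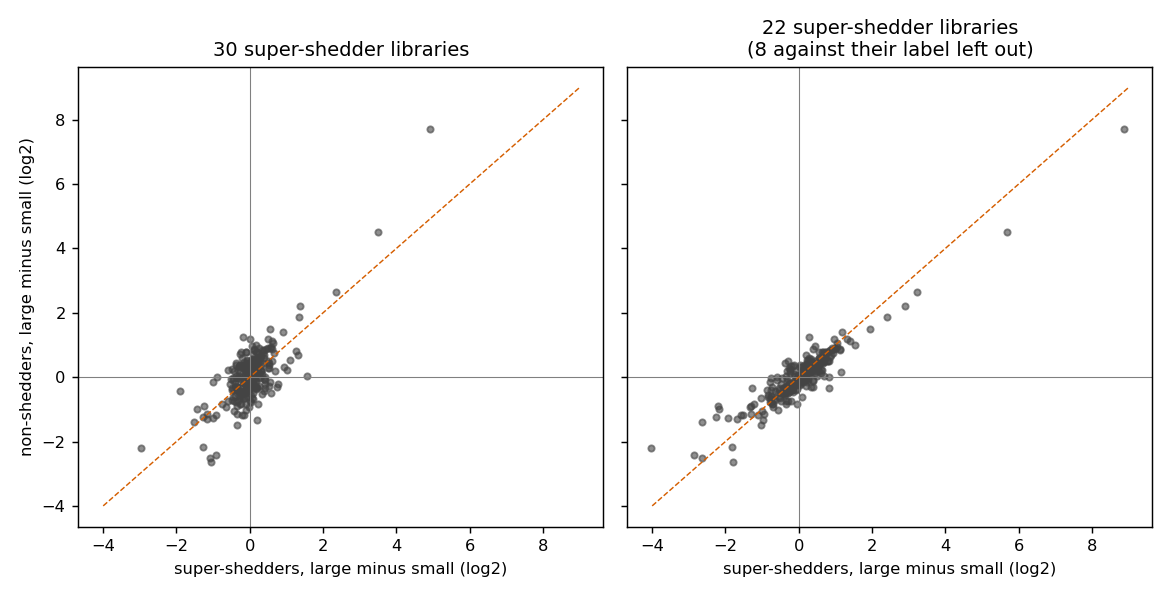
Large minus small difference (log2) of each miRNA in super-shedders (horizontal) and non-shedders (vertical), with all 30 super-shedder libraries on the left and 22 on the right. The non-shedder values are those of all 30 non-shedder libraries in both panels. The dashed line marks equal differences. The median size on the left is 0.204 in super-shedders and 0.378 in non-shedders, and the libraries left out on the right were chosen by miR-196b.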

How the data were processed

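Small RNA of snap-frozen intestinal biopsies was prepared with the mirVana and TruSeq small RNA kits, per the labels' protocols. The authors deposited raw counts of reads for each mature miRNA, and the values are whole numbers with unequal column sums. Bowtie and edgeR are named in the submitters' processing notes. Their versions, the build, the annotation and how multi-mapped reads were handled are not given in the sources used, so values of near-identical miRNAs are uncertain.

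Counts of the 30 super-shedder libraries passed filterByExpr at a minimum count of 10, TMM scaling and the two-sided quasi-likelihood test of edgeR 4.0.16 (R 4.3.3). Region was a factor and the letter a fixed block. Contrasts were the mean of the 3 large-intestine regions minus that of the 3 small-intestine regions, any difference among the regions of a side, and, over 60 libraries, the difference of that contrast between super-shedders and non-shedders. P-values were adjusted by Benjamini-Hochberg over all miRNAs tested, with a threshold of 0.05. Standard errors are the size of the log2 difference over the square root of F. Differences within an animal are means of log2 CPM with a prior count of 2. Libraries of 1 animal and side enter as separate libraries, so counts summed per animal (edgeR) and animal means (limma 3.58.1) were tested too, as was DESeq2 1.42.0.

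Named miRNAs had a mean of at least 100 CPM. They were the 12 largest called log2 differences per direction, filled by smallest p up to 6 where fewer passed. The 3 most abundant members of each list and, for the other tests, the 5 smallest p were named as well, and the same rule was used without the 8 libraries. miR-196a, miR-10b and other miRNAs given beyond it were chosen after their values were seen. The libraries compared, the lists and the rule were chosen with earlier results of these data known, and the settings without the libraries against their label, or without letters H and I, with these values in view. Each animal was left out in turn, and the values without letter I were singled out from these fits with the values in view.

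As a check of the pairing, same-letter libraries were correlated after subtracting region means. Their correlation averaged 0.151 over 75 pairs, against -0.0544 for other pairs, and 42 of the 75 exceeded 0.1. By letter it ran from 0.00112 in H and 0.109 in J to 0.267 in I. Letters were kept as animals from the labels, not from this check. No replicate libraries were alike within counting error (chi-square per degree of freedom of at least 26.9 over 60 pairs). Limits for counts of 0 are 3 counts and cover counting error only.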

Additional observations from a re-analysis of the deposited data

Results flagged for a closer look

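Of 56 miRNAs checked for 1 animal far from the other 4 in its large minus small log2 difference, 6 had such an animal. The rule flags about 1 in 20 sets of independent normal values. The 56 miRNAs share the same animals and libraries, so they are not independent sets and the count cannot be set against that rate. In letter I the difference was 2.66 for miR-200a, 3.58 for miR-375, 3.41 for miR-182, 2.94 for miR-183 and 1.2 for miR-486, each far above F, G, H and J. The first 4 are epithelial miRNAs, and the proximal and distal jejunum libraries of I held the lowest epithelial sums of the small intestine. The cecum of I, a library against its label, held the highest miR-200a, miR-182 and miR-183 of any super-shedder library. It had 1772, 3699 and 696 CPM of them, and 9150 CPM of miR-375, which was higher in some other libraries. miR-486 stood out through the descending colon of I. In letter G the difference of miR-181a was -0.418, below the other 4. Of 6 region-wise sets of total counts, 2 had a library far from the others, the proximal jejunum of letter I with 5961690 counts and the descending colon of letter J with 13942283 counts.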

How the results depend on the processing

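The count of 0 for large against small intestine was also 0 under RLE and total-count scaling, no count filter, a stricter filter, a robust fit, animal sums and animal means. It was 3 with no replicate block, 3 with all 60 libraries in 1 fit, 9 with DESeq2 and 0 to 20 when an animal was left out, 20 without letter I. Settings chosen with these values known gave 92 without the 8 libraries against their label, 43 without letters H and I, and 7 with limma on animal means without the 8. The 3 calls among small-intestine regions became 1 with total-count scaling, 9 with DESeq2, 16 without the 8 libraries and 0 to 6 when an animal was left out. The 0 calls among large-intestine regions became 1 with no count filter and 2 with no replicate block, miR-451 and miR-486. The count of 0 for super-shedders against non-shedders stayed at 0 in 20 alternatives. Causes of these changes were not tested. Of 216 values of the 12 named miRNAs under other settings none changed sign and 35 passed the threshold. Most of these passes came from settings without letter I, without letters H and I or without the 8 libraries. With no library left out, passes came from DESeq2, from the fit with no replicate block and from the fit of all 60 libraries. Adjusted p over 18 settings ran from 0.00246 to 0.607 for miR-199c, from 1.08e-06 to 0.944 for miR-10a and from 2.63e-05 to 0.712 for miR-146a, and no setting brought miR-92b or miR-191 past it. The lowest values of miR-10a and miR-146a came without the 8 libraries, which were chosen by miR-196b, and are descriptive only. With no library left out DESeq2 gave an adjusted p of 0.0376 for miR-10a and 0.0522 for miR-146a. The median log2 difference of all miRNAs moved by -0.034 with RLE and -0.067 with total-count scaling. The replicate block was kept in the main test, since letters stand for animals. P-values of the main test measure the spread among libraries within animals after the block, not that between 5 animals.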

Other observations

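miR-205, made in stratified and glandular epithelium, was rare and yet higher in the large intestine in all 5 super-shedders. It averaged 7.04 ± 3.57 CPM in the large intestine and 1.55 ± 1.01 CPM in the small intestine (SD, n = 5 animals), with 0 to 18.3 CPM and 0 to 5.94 CPM in single libraries, which overlapped. Its log2 differences were 2.29 in F, 1.61 in G, 0.14 in H, 0.68 in I and 2.53 in J, with a fitted value of 2.38 ± 0.64 (adjusted p = 0.102, edgeR). In the fit of 60 libraries it was 2.35 ± 0.55 in super-shedders and 2.63 ± 0.53 in non-shedders. The whole table of super-shedders holds 492 counts of it, so single libraries rest on few reads.

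miR-152 had 0 counts in the descending colon library of letter F, which held 4422528 counts in all and so allows up to 1.47 CPM. The next lowest library, the proximal jejunum of G, had 97 counts, and the highest, the descending colon of J, had 1852.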
